A study of Caenorhabditis elegans with 27 samples.

Results

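Described here are 40 shorter autosomal genes. Their transcripts were lower at 120 min of auxin than at 0 min in the TOP-1 degron strain, and fell less or not at all in the control strain. They were selected on measured values, by a fixed rule. A gene had to lie on an autosome, to span at least 600 bp and less than 5 kb on the files' coordinates, and to have a mean level of at least 5 in AM05 at 0 min. Its ratio of 120 to 0 min had to be at most 0.6 in each AM05 replicate and at least 0.8 in each CA1200 replicate. Levels are TPM (transcript abundance relative to the library total) scaled between libraries by median ratios, and each ratio is (level + 1) at 120 min over (level + 1) at 0 min. Of the 20390 genes listed, 5067 met the conditions on chromosome, span and level and are called eligible. In 361 of them, 7.12% of the eligible genes, the ratio was at most 0.6 in both AM05 replicates, and 40 of these, 0.789% of the eligible genes, also met the CA1200 condition. All 40 passed the filter on low values (a TPM of 1 or more in 2 or more libraries), as did 14271 genes in all.

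Poly(A) RNA of whole Caenorhabditis elegans larvae was sequenced in 27 libraries from 4 strains. CA1200 is the control strain without a tagged target, known for expressing the plant F-box protein TIR1 from the eft-3 promoter in somatic cells. AM05 carries top-1::degron::GFP, SS01A carries top-2::degron::GFP and AM01 carries dpy-27::degron::GFP, and with TIR1 present auxin sends such degron-tagged proteins to the proteasome. Worms received 1 mM auxin (indole-3-acetic acid) for 0, 30, 60 or 120 min at the L2/L3 larval stage. AM05, CA1200 and SS01A had 2 libraries at each time, except for CA1200 at 60 min with 1. AM01 had 1 L2/L3 library and 1 mixed-stage library at 0 min and again at 120 min. The labels call the replicates biological. Untreated libraries are labelled 0 min or no auxin, while the treatment protocol describes untreated worms kept on plain plates as long as the treated ones, so the collection time of the 0 min worms is not certain.

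Topoisomerase I nicks 1 DNA strand and lets supercoils relax, and it is known for removing the torsion that builds up ahead of and behind a moving RNA polymerase. Topoisomerase II passes 1 duplex through another. Loss of type I activity is known, in mammalian neurons, to lower the transcripts of very long genes more than those of short ones. On the autosomes of this worm the central regions are dense in conserved genes, whereas the arms hold more repeats, longer introns and more recombination.

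Library depth, estimated from the step that 1 fragment makes in FPKM times transcript length, was 5.68 to 20.98 M fragments, and 12.8 to 20.98 M in AM05 and CA1200. The median member stood on an estimated 186 to 708 fragments in each AM05 and CA1200 library. The 6 libraries of SS01A replicate 1 and of AM01 at L2/L3 stood apart. Their median TPM was 5.10 to 6.83, against 1.27 to 2.53 in the other 21 libraries. The degron acts on protein, so the top-1 transcript does not check the depletion. Its level was 21.8 to 41.7 in AM05 and 25.1 to 42.8 in CA1200. The samples are bulk RNA, in which fewer cells of a type and less RNA per cell cannot be told apart.

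The selected genes had lower ratios already at 30 min of auxin in AM05, and their medians at 60 and 120 min differed little. Their median ratio to 0 min was 0.635 and 0.629 at 30 min in replicates 1 and 2, 0.477 and 0.480 at 60 min, and 0.443 and 0.497 at 120 min. In the 5027 other eligible genes the medians in the same 6 libraries were 0.965 to 1.03. All 40 members were below 1 at 30 min in replicate 1 and 38 in replicate 2, and at 60 min all 40 were below 1 in both. Between 60 and 120 min the level was lower at 120 min in 35 members in replicate 1 and in 23 in replicate 2. These ratios share the 0 min libraries that the rule used, so they are a description without a test.

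**Figure D1:**
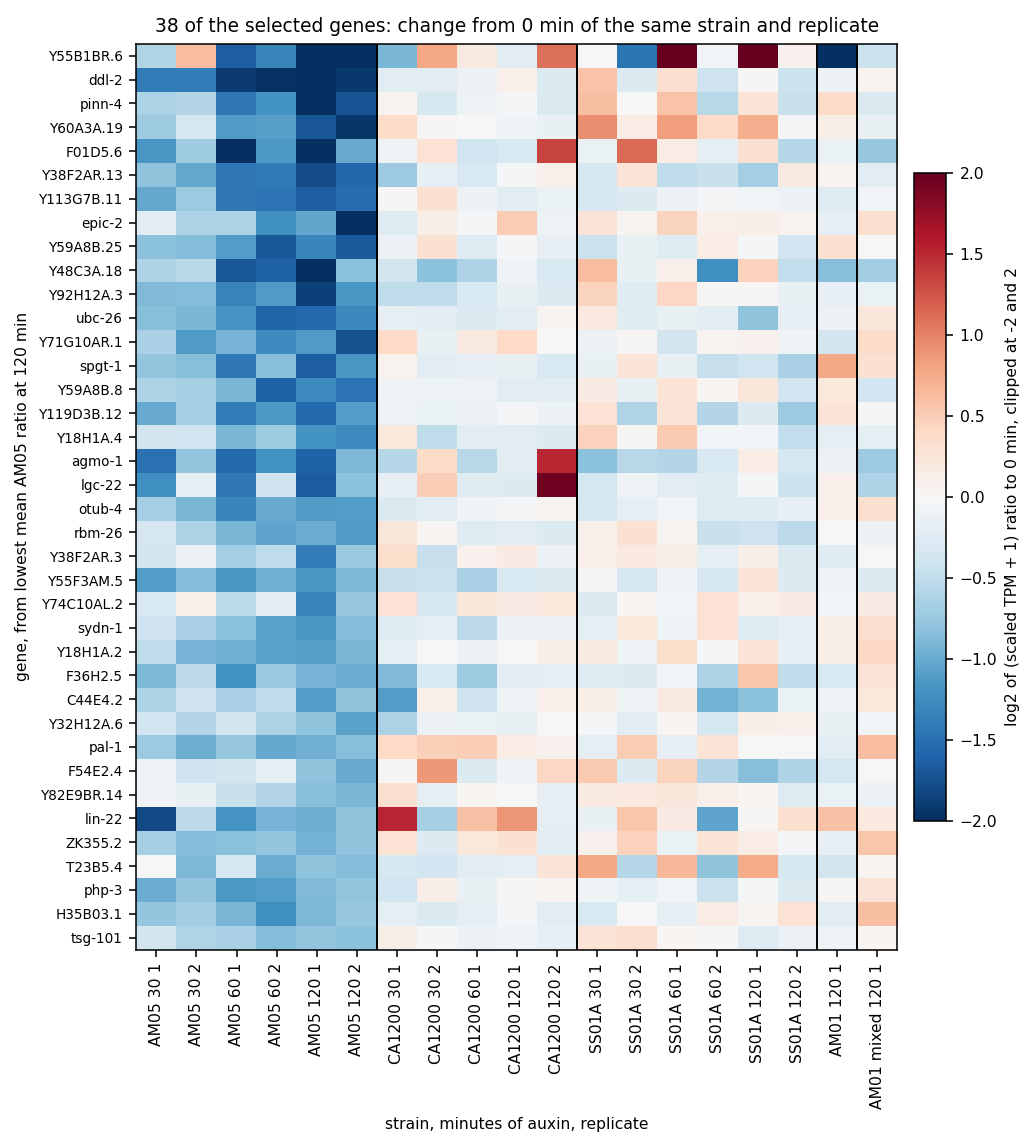
Log2 ratio of (scaled TPM + 1) to 0 min of the same strain and replicate for 38 of the 40 selected genes (rows, from the lowest mean AM05 ratio at 120 min) in 19 libraries (columns: strain, minutes of auxin, replicate), with colours clipped at -2 and 2. The AM05 columns are blue in nearly every row, while CA1200, SS01A and AM01 are pale apart from single genes such as Y55B1BR.6, lgc-22 and lin-22. The AM05 and CA1200 columns at 120 min chose the genes.

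In the control strain the members' median ratio was 0.927 and 0.908 at 30 min, 0.909 in the single 60 min library, and 0.948 and 0.915 at 120 min. Ratios of at most 0.6 were seen in CA1200 at 30 min in 3 and 1 members, against 3.76% and 6.62% of the other eligible genes. At 60 min there were 0 such members, against 4.48% of the others. In SS01A the medians of the 2 replicates were 1.03 and 0.971 at 30 min, 1.03 and 0.887 at 60 min, and 1.02 and 0.864 at 120 min. In AM01 at 120 min the median was 0.930 in the L2/L3 pair of libraries and 0.996 in the mixed-stage pair. The ratio was at most 0.6 in 3 and 0 members in the SS01A pairs at 120 min, and in 2 and 1 members in the AM01 pairs. Of the other eligible genes 0.497% and 9.91% were at most 0.6 in these SS01A pairs and 2.07% and 12.2% in the AM01 pairs. The name under which these genes were grouped speaks of loss of TOP-1 alone, but the rule set AM05 only against CA1200. The difference between AM05 and SS01A from 0 to 120 min was not tested, since the AM05 libraries chose the genes.

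**Figure D2:**
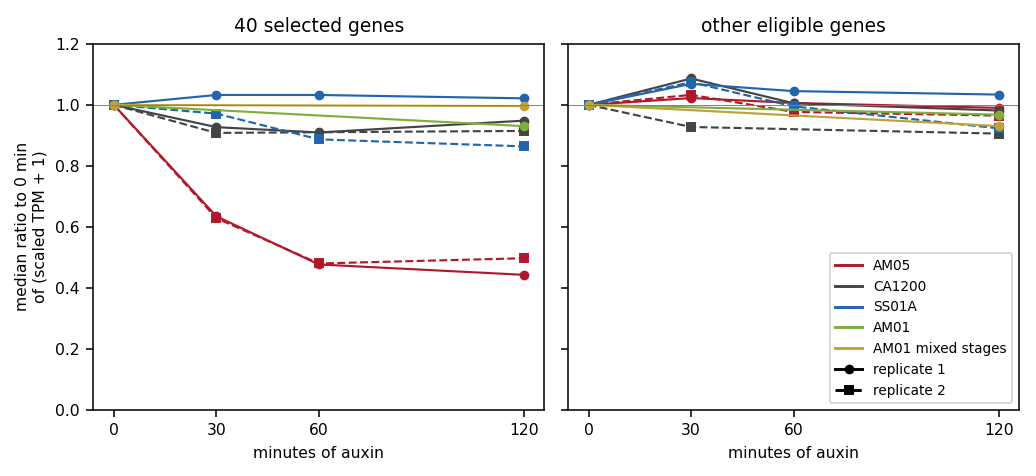
Median ratio of (scaled TPM + 1) to 0 min against minutes of auxin, for the 40 selected genes (left) and the 5027 other eligible genes (right), with 1 line per strain and replicate. The AM05 lines of the selected genes are 0.477 and 0.480 at 60 min, and the lines of the other eligible genes stay between 0.906 and 1.09.

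The rule was strict about agreement between replicates. Applied to replicate 1 alone it took 387 eligible genes, and applied to replicate 2 alone 191. The 40 members were 10.3% of the first set and 20.9% of the second, while 3.77% of all eligible genes met the rule in replicate 2 and 7.64% in replicate 1. Just inside the AM05 limit were Y38F2AR.3 with 0.597 and H35B03.1 with 0.589 in the higher replicate, and just outside were lpin-1 with 0.601 and vbh-1 with 0.606. On the CA1200 side F01D5.6 and spgt-1 had 0.808 and 0.809 in the lower replicate, against 0.798 for D2024.4 and 0.794 for phkb-1 outside. By level, Y32H12A.6 with 6.59 and Y92H12A.3 with 7.12 were the lowest members, and Y110A2AM.1 with 4.55 and F55A12.6 with 4.44 missed the limit. By span on the files' coordinates the longest members were Y82E9BR.14 with 4819 bp and ddl-2 with 4795 bp. Beyond these, nep-11 (5091 bp) and efl-2 (5121 bp) met every other condition. The shortest were T23B5.4 with 751 bp and Y32H12A.6 with 1096 bp, and T22D1.18 with 321 bp was too short.

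DDL-2, which together with DDL-1 and HSB-1 binds the heat shock factor HSF-1, is encoded by 1 of the 12 members with the lowest ratio. The ddl-2 gene lies on chromosome II at 13542765 to 13547559 of the files' coordinates, on the minus strand, and is protein coding. Its level in AM05 was 9.35 and 9.82 at 0 min, 2.91 and 3.15 at 30 min, 1.76 and 1.74 at 60 min, and 1.38 and 1.84 at 120 min. Both replicates dropped alike, and each level at 30 min was below the lowest CA1200 value. In CA1200 it was 7.88 and 10.1 at 0 min, 6.60 and 8.41 at 30 min, 7.22 at 60 min, and 8.48 and 8.18 at 120 min. In SS01A it was 3.88 to 6.22 in replicate 1 and 8.63 to 11.95 in replicate 2, so that replicates stood further apart than times.

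The pinn-4 gene encodes a parvulin-type peptidyl-prolyl isomerase, an enzyme that turns proline bonds. It lies on chromosome II at 13402910 to 13404559 on the plus strand. Its level in AM05 was 73.9 and 102 at 0 min, 47.2 and 67.8 at 30 min, 26.8 and 43.99 at 60 min, and 14.5 and 29.97 at 120 min. It was lower at each later time in both replicates. The CA1200 values were 75.5 to 105 over all 7 libraries and did not overlap those of AM05 at 30 min or later. In the 6 libraries that stand apart it was 25.9 to 45.3. Y48C3A.18, 8003 bp further on the same strand with efl-2 between them, was 12.4 and 13.2 at 0 min and 3.15 and 3.61 at 60 min in AM05. At 120 min its replicates parted, with 1.16 and 6.93. In CA1200 its ratio to 0 min was 0.776 and 0.566 at 30 min, 0.655 at 60 min, and 0.950 and 0.813 at 120 min. At 60 min in SS01A the ratio was 1.08 and 0.429. In AM01 at 120 min it was 0.555 in the L2/L3 pair and 0.615 in the mixed-stage pair, so low ratios of this gene were not limited to AM05.

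The other members with low ratios have sequence names only, and no role is given for them here. Y60A3A.19 was 42.3 and 50.7 at 0 min, 25.6 and 39.9 at 30 min, 18.8 and 23.4 at 60 min, and 12.2 and 12.5 at 120 min in AM05. CA1200 held 43.2 to 70.6 in its 7 libraries. In the 6 libraries that stand apart Y60A3A.19 was 10.9 to 21.6, with and without auxin. Y113G7B.11 was 14 and 9.77 at 0 min, 6.39 and 5.48 at 30 min, 4.57 and 2.88 at 60 min, and 3.81 and 2.74 at 120 min in AM05. CA1200 stayed at 12.6 to 17.5, but the 6 libraries that stand apart had 1.93 to 2.85 with and without auxin. Y59A8B.25 was 15.9 and 20.04 at 0 min, 8.54 and 10.6 at 30 min and 6.82 and 5.47 at 60 min in AM05, and 14.6 to 21.1 in CA1200. Y38F2AR.13 and Y92H12A.3 were also below all their 0 min values at every later time in AM05. In both, however, the lowest CA1200 value at 30 min (4.02 and 3.52) lay within or below the AM05 range at that time.

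**Figure D3:**
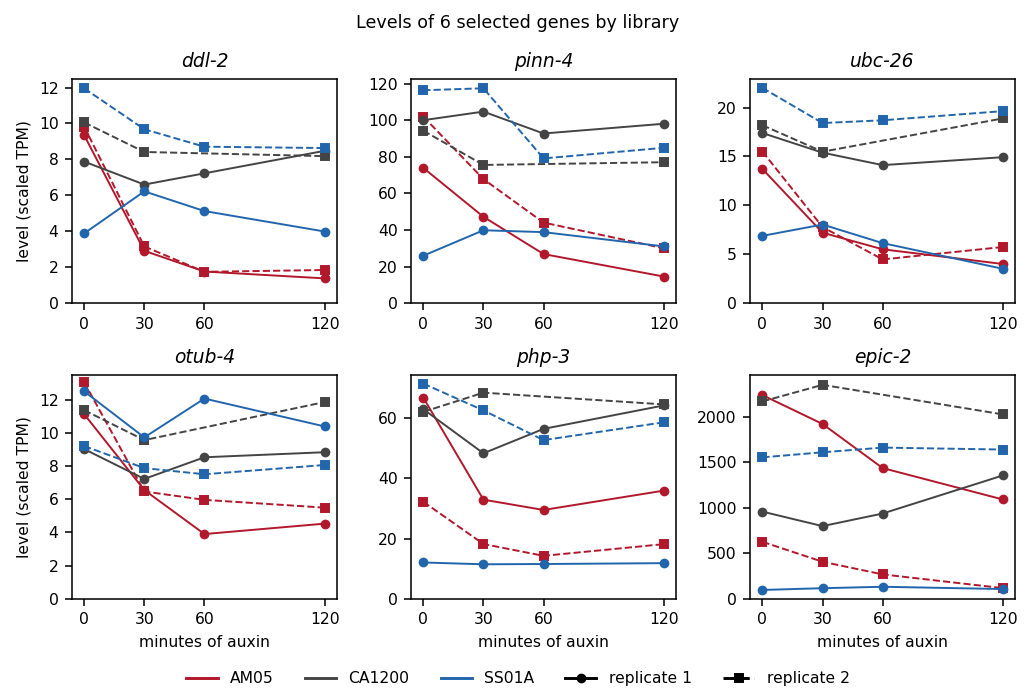
Levels (scaled TPM) of 6 selected genes against minutes of auxin, with 1 line per replicate of AM05, CA1200 and SS01A. In ddl-2, pinn-4 and ubc-26 both AM05 lines lie below the CA1200 lines from 30 min on, whereas in epic-2 the AM05 replicates start at 2240.4 and 627 and the replicates of CA1200 and SS01A also lie far apart.

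In all 4 members belong to the ubiquitin system, in which E1, E2 and E3 enzymes pass ubiquitin to target proteins and deubiquitinases take it off. Described here are the E2 conjugating enzyme ubc-26 and the OTU-family deubiquitinase otub-4. The 4 were 3.54% of the 113 eligible genes of the list of ubiquitin, proteasome and SUMO genes. Members were 0.789% of all eligible genes. This list is 1 of 25 looked at, and its share was not tested.

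The ubc-26 level was 13.7 and 15.5 at 0 min, 7.20 and 7.78 at 30 min, 5.50 and 4.47 at 60 min and 4.00 and 5.74 at 120 min, against 14.1 to 18.9 in CA1200. In SS01A replicate 1, which stands apart, ubc-26 was 3.51 to 8.03 with and without auxin. The level of otub-4 was 11.1 and 13.1 at 0 min, 6.55 and 6.47 at 30 min, 3.90 and 5.96 at 60 min and 4.53 and 5.49 at 120 min, against 7.23 to 11.9 in CA1200.

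Among the 15 eligible ubc genes some that are no members came near. The ratios of ubc-3 were 0.551 and 0.587 in AM05 but 0.764 in CA1200 replicate 2. Those of ubc-14 were 0.610 and 0.563 in AM05 and 0.888 and 0.714 in CA1200. Those of ubc-15, which spans 7062 bp and is the next gene upstream of ubc-26 on its strand, were 0.435 and 0.568 in AM05 and 1.21 and 0.993 in CA1200. By contrast ubc-12 and ubc-16 were above 1 in both AM05 replicates. Of the 306 genes of the ubiquitin list that were tested, none was called at 60 min against CA1200, and their median difference was -0.04 on the log2 scale.

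The other 2 members found in a gene list were the homeobox genes pal-1 and php-3, out of 84 eligible transcription factors. They were 2.38% of these, against 0.789% of all eligible genes that were members. PAL-1 is the worm Caudal protein, which sets posterior fates. The pal-1 level in AM05 was 12.4 and 10.8 at 0 min, 7.14 and 4.97 at 30 min, 6.93 and 4.76 at 60 min, and 5.92 and 5.55 at 120 min. CA1200 had 9.05 to 16.6, above every AM05 value from 30 min on. In the 6 libraries that stand apart pal-1 was 3.74 to 5.95, with and without auxin. PHP-3 is a posterior Hox protein, encoded beside nob-1. Its level in AM05 was 66.8 and 32.2 at 0 min, 32.9 and 18.2 at 30 min, 29.5 and 14.3 at 60 min, and 35.9 and 18.2 at 120 min. CA1200 had 48.3 to 68.5. In SS01A it was 11.5 to 12.1 in replicate 1 and 52.7 to 71.5 in replicate 2. Another factor gene, lin-22, encodes a Hairy-type repressor. It is outside the list and was named after its values were seen, as were agmo-1, sydn-1, rbm-26 and Y18H1A.2. In CA1200 it was at most 1.89 and listed at 0 in 1 library, so its control ratio rests on values near the floor. The other 23 of 25 gene lists, which cover transcription, splicing, decay, translation, respiration, chromatin, cell cycle, stress, immunity, metabolism, signalling and cuticle, held no member, and 34 members were in no list.

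Several of the more highly expressed members differed strongly between replicates of 1 group. The level of epic-2, the highest of all, was 2240.4 and 627 in AM05 at 0 min and 1092 and 118 at 120 min. In CA1200 it was 799.5 to 1357 in replicate 1 and 2028 to 2353 in replicate 2, and in SS01A 97.5 to 133 and 1556 to 1663. The ligand-gated ion channel gene lgc-22 was 50.2 and 346 in AM05 at 0 min. In CA1200 replicate 2 it was 34.4 at 0 min and 136 at 120 min, a ratio of 3.87. The same library pair gave 2.56 for F01D5.6 and 2.86 for agmo-1, the alkylglycerol monooxygenase gene. Y55B1BR.6, the member with the lowest mean ratio, was 227 and 72.1 in AM05 at 0 min, 149 and 111 at 30 min, 71.6 and 28.2 at 60 min, and 42.2 and 15.7 at 120 min. It was listed at 0 in SS01A replicate 1 at 0 and 30 min and in the L2/L3 library of AM01 at 120 min. Steadier between the replicates of AM05 and CA1200 was tsg-101, which encodes an ESCRT-I subunit of endosomal sorting. It was 40.8 and 49.8 in AM05 at 0 min and 25.6 and 26.8 at 60 min, with 36.99 to 48.3 in CA1200. In the 6 libraries that stand apart it was 20.2 to 29.7, with and without auxin, and in SS01A replicate 2 it was 37.4 to 51.0.

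Comparisons from libraries that the rule did not use, though of the same replicate series as those it used, were tested with limma over all 14271 genes, with Benjamini-Hochberg adjustment and a call at an adjusted p under 0.05. At 60 min of auxin 35 of the 40 members were lower in AM05 than in CA1200, and their median log2 difference was -0.70 (range -2.17 to 1.42). The median over all genes tested was 0.01, with 49.1% negative, and over the other eligible genes -0.10, with 57.3% negative. No member was called, and limma called 0 of all genes lower (0%). At an unadjusted p under 0.05 there were 6 members lower and 1 higher, against 1.83% of all genes lower. Both AM05 libraries were below the CA1200 library in 31 members, against 33.5% of all genes. CA1200 is 1 library at this time and was assumed to vary like the other groups. In 19 members both AM05 libraries were below all 3 CA1200 and SS01A libraries at 60 min, against 9.47% of all genes. Without the SS01A library that stands apart it was 29 members, against 21.9%.

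The lowest p at 60 min was that of Y59A8B.8, which was named after its values were seen. Its level was 8.36 and 6.55 in AM05 and 24.6 in CA1200, and 21.1 and 19.5 in SS01A. The log2 difference to CA1200 was -1.60 with SE 0.30, and limma's adjusted p was 0.581. Next came Y18H1A.2 with -0.98 (SE 0.30) and ddl-2 with -1.58 (SE 0.49), each with an adjusted p of 1. The 5 members above CA1200 were lin-22, F54E2.4, F36H2.5, C44E4.2 and sydn-1, with log2 differences of 1.42, 1.38, 0.55, 0.46 and 0.15. SYDN-1 is a nuclear protein that restrains polyadenylation during neuron development.

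At 30 min 34 of 40 members were lower in AM05 than in CA1200, with a median log2 difference of -0.38 (range -1.34 to 0.70) against 0.02 over all genes. Of all genes 47.4% were negative, and of the other eligible genes 53.3%. No member was called, nor was any gene called lower (0%). At an unadjusted p under 0.05 there were 7 members lower and 0 higher, against 1.59% of all genes lower. In 20 members both AM05 libraries lay below both CA1200 libraries, against 11.6% of all genes. Both lay above in no member, against 15.7% of all genes. In 12 members they lay below all 4 libraries of CA1200 and SS01A, against 4.31% of all genes. Without the SS01A library that stands apart there were 20, against 8.06%. The pal-1 difference was -1.13 with SE 0.37 and that of Y59A8B.8 was -0.92 with SE 0.24, both with a limma adjusted p of 1.

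Markers of cell types differed in level between these groups, and their part in the differences was not tested. At 60 min the summed level of 13 germline markers was 22.6 to 76.0 in AM05 and 14.5 in CA1200, and that of 10 pharynx markers 33.5 to 66.3 and 7.78. Without auxin, at 0 min, the germline sums were 28.7 to 98.9 in AM05 and 15.04 to 25.2 in CA1200, and the pharynx sums 60.4 to 67.6 and 9.06 to 19.1. Only 1 marker of each of these lists reached a TPM of 1 in every library, and none was at 0 in all. The sum of 11 intestine markers was 4569 to 5545 in AM05 and 10878 in CA1200 at 60 min, whereas the groups overlapped at 0 and at 30 min. The molting list, which follows larval age, summed to 1297 and 6847 in the 2 AM05 libraries and to 2779 in CA1200. No marker or molting gene is a member. At 0 min, in libraries that the rule used, the median log2 difference of AM05 to CA1200 was 0.10 in the members and -0.05 in the other eligible genes.

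Within AM05 39 of 40 members were lower at 60 than at 30 min, with a median log2 difference of -0.35 (range -1.49 to 0.11), against a median of 0.00 and 49.8% negative over all genes. No gene was called by limma (0%), and 1 member was lower at an unadjusted p under 0.05, against 0.210% of all genes. Same-numbered AM05 libraries deviated together, and with the replicate as a block 18 members were lower at an unadjusted p under 0.05, against 2.32% of all genes. The lowest adjusted p of a member was then 0.943. Both 60 min libraries lay below both 30 min libraries in 22 members, against 11.4% of all genes. Blocked p-values were lowest for Y113G7B.11, with -0.58, and for rbm-26, an RNA-binding motif gene, with -0.50. The rbm-26 level was also lower in CA1200 at 60 min (19.1) than at 30 min (27.5 and 31.2). At 60 min AM05 had 17.4 and 20.8 for this gene, on both sides of the CA1200 value. For Y113G7B.11 CA1200 had 15.6 and 17.5 at 30 min and 14.1 at 60 min. In the control the step from 30 to 60 min had a median of 0.00 over all genes, with 49.8% negative. The members' median was -0.11 with 29 of 40 negative. With the replicate block it was -0.03 with 25 negative, and without CA1200 replicate 1 at 30 min it was -0.25. The difference between the steps had a median of -0.22 with 29 negative and no gene called lower (0%). Without CA1200 replicate 1 at 30 min that median was -0.06.

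**Figure D4:**
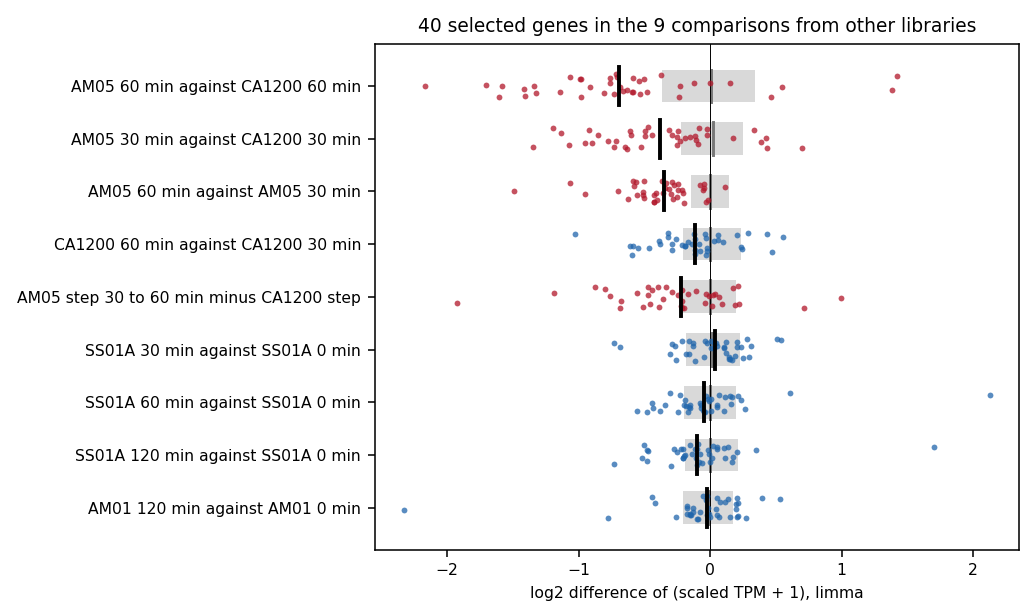
Log2 differences (limma, scaled TPM + 1) of the 40 selected genes, 1 point each, in the 9 comparisons from libraries other than those of the rule, with both SS01A and AM01 against their own 0 min. Black bars are the members' medians, grey boxes the interquartile range of all 14271 genes and grey bars their median. The members' medians are -0.70, -0.38 and -0.35 in the upper 3 comparisons and -0.10 to 0.04 in SS01A and AM01.

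In SS01A no member was called against 0 min. Their median log2 difference was 0.04 at 30 min with 16 negative, -0.05 at 60 min with 25 negative and -0.10 at 120 min with 28 negative. Of all genes 47.8%, 50.1% and 49.6% were negative at these times, and of the other eligible genes 34.5%, 46.2% and 53.3%. No gene was called lower (0%). At an unadjusted p under 0.05 there were 0, 0 and 1 members lower, against 0.645%, 0.519% and 0.476% of all genes. With the replicate block there were 1, 1 and 4, against 4.29%, 4.53% and 4.04%. The medians change sign with the library left out, from -0.40 to 0.17 at 120 min without replicate 1 or 2 of the 0 min group. In AM01 at 120 min the median was -0.02 with 22 of 40 negative, and -0.10 with 24 negative without either mixed-stage library. In the fit of all libraries 52.2% of all genes were negative there, and 61.8% of the other eligible genes. In the fit of all libraries limma called no gene lower (0%) and 7 genes higher, none of them a member. At an unadjusted p under 0.05 there were 0 members lower and 1 higher in AM01, namely spgt-1, against 0.434% and 1.09% of all genes.

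In the authors' deposited tables, made from counts with DESeq2, 39 members were listed and Y59A8B.25 was not. All 39 had a negative fold change in AM05 against no auxin at each time. In the authors' deposited table for 120 min, the contrast of the rule, 8 members had an adjusted p under 0.05 (background 2.16% of genes), with ddl-2 at a log2 fold change of -2.60. In the authors' deposited tables for 60 and 30 min over no auxin, which share the 0 min libraries with the rule, 3 (1.61%) and 1 (0.336%) passed. In the authors' deposited tables against CA1200, from libraries that the rule did not use, 0 members passed at 60 min (0.0297%) and 0 at 30 min (0.0222%). There 33 of 39 were negative at 60 min and 32 at 30 min.

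Position along the chromosome, intron content and neighbours were not used by the rule. Of these, the measures of position and intron share were chosen after values were seen. Within the outer 20% of the chromosome's length at either end lay 30 of the 40 members, compared with 24.0% of the other eligible genes. The median distance to the nearest end was 13.6% of the chromosome in members and 32.5% in the others. The 30 outer members had a median log2 difference to CA1200 at 60 min of -0.76 (27 negative) and the 10 inner ones of -0.49 (8 negative). Of the eligible genes in these outer regions 2.42% were members, and of the rest 0.261%. Chromosome IV held 13 members (32.5%) and 953 of the other eligible genes (18.96%), and chromosome V 5 members (12.5%) and 1099 of the others (21.9%).

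Among the 34 members found in the Ensembl annotation by sequence name, introns made up a median of 64.9% of the transcript, against 35.0% in the other eligible genes. Members were also longer than these, with a median span of 3355 bp against 2029 bp on the files' coordinates. RefSeq gives lengths above the 5 kb limit for Y55B1BR.6 (10319 bp), spgt-1 (6322 bp), ddl-2 (6140 bp) and ubc-26 (5578 bp). The RefSeq length was over 1.5 times the span in 8.82% of the 34 members and 2.83% of the other eligible genes. In other eligible genes within the members' interquartile span range (2325 to 4131 bp) the intron median was 42.8%, so the members' introns were long for their span. The coding length was short for it, with 833 bp against 1347 bp in that range, and exon number was 5 against 7. All 34 are protein coding in RefSeq. The 6 other members, C44E4.2, F36H2.5, F54E2.4, Y38F2AR.13, Y71G10AR.1 and Y92H12A.3, had no entry under their sequence name, as had 0.935% of the other eligible genes.

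Other eligible genes with these features were also lower in AM05 than in the single CA1200 library at 60 min, by less than the members. By intron share the step from 30 to 60 min within AM05 showed no such difference. At 60 min the other eligible genes of which introns take over 50% had a median log2 difference to CA1200 of -0.31, against -0.02 for those with less. In the outer regions it was -0.23, and -0.05 in the rest. From 30 to 60 min within AM05 the medians were -0.06 and -0.06 by intron share, and -0.09 and -0.05 by position.

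**Figure D5:**
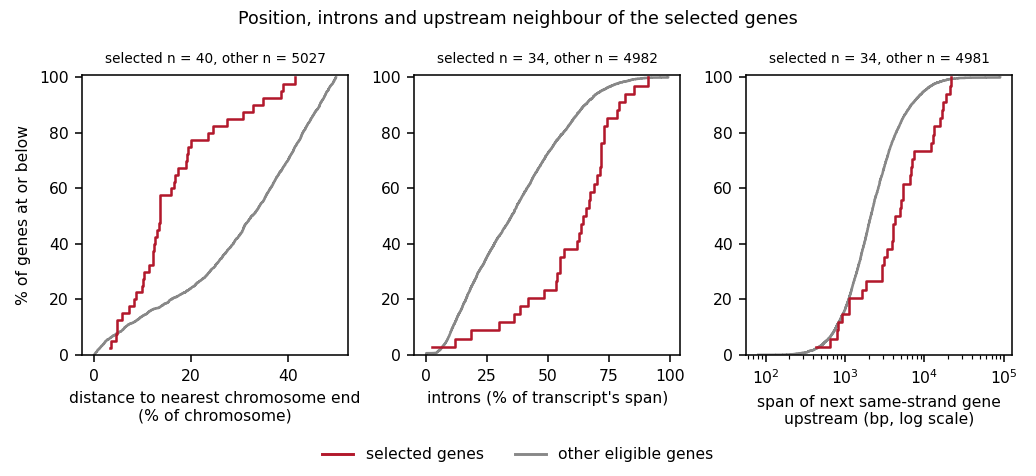
Cumulative share of genes by distance to the nearest chromosome end, by intron share of the longest transcript and by span of the next same-strand gene upstream (log axis), for the selected genes (red) and the other eligible genes (grey). The red curves have medians of 13.6%, 64.9% and 4577 bp, against 32.5%, 35.0% and 2110 bp in grey.

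Long genes stood next to many members. The next gene upstream on the same strand had a median span of 4577 bp, against 2110 bp for the other eligible genes, and reached 10 kb in 9 of 34 members (26.5%) against 4.797%. These 9 long genes were all lower in AM05 at 60 min than in CA1200 and than at 30 min, with medians of -0.70 and -0.44 on the log2 scale. Among them, Y48E1B.3 and abtm-1 overlap their members on the same strand, so their values are not separate from those of the members. The rest of the 9 had -0.88 to -0.23 against CA1200 and -0.61 to -0.21 against 30 min. Over the tested long genes upstream of other eligible genes the medians were 0.02 and -0.09. Over all 866 tested genes of 10 kb or more the medians were -0.05 and -0.07, with 476 and 516 negative. The difference between these sets was not tested. For example, sydn-1 lies 1100 bp from dot-1.1 (18537 bp), a histone methyltransferase gene. T23B5.4 is 334 bp from wdfy-3 (21393 bp), and pinn-4 is 964 bp from top-3B (12255 bp), which encodes another topoisomerase. Tight same-strand spacing of at most 500 bp, as in operons, was no more frequent, at 20.6% of members and 23.8% of the others. Members lay within 20 kb of each other in 4 pairs. These were Y18H1A.2 and Y18H1A.4 with 27 bp between them, Y38F2AR.13 and Y38F2AR.3, Y59A8B.25 and Y59A8B.8, and pinn-4 and Y48C3A.18, so the 40 genes are not independent. Another listed gene overlaps 8 of the members. The overlap is on the same strand for ddl-2, which overlaps the 20751 bp gene Y48E1B.3, and for Y74C10AL.2, which overlaps abtm-1, and reads shared by these pairs make their levels uncertain. For ubc-26 and Y55B1BR.6 the strand of the overlapping gene is not in the annotation used here, and the other 4 overlap a gene on the opposite strand.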

How the data were processed

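The members and the gene lists were chosen with earlier results of these data known. For each library the authors deposited FPKM and TPM per gene, per the file headers, and their comparison tables give log2 fold changes and p-values. Cufflinks 2.2.1 and DESeq2 1.30.0 are among the tools in the submitters' processing notes, beside the aligner HISAT2 2.2.1, the counter HTSeq 0.13.5 and CASAVA 1.8. Libraries are stranded (dUTP), per the labels' protocols. The genome build is not given in these sources. Coordinates are those of the files, with starts counted from 1. Deposited TPM was divided by median-ratio factors from the 12832 genes above 0 in all 27 libraries, and FPKM served for the depth estimate. limma 3.58.1 (R 4.3.3) with a variance trend was fitted to log2(scaled TPM + 1), a scale that understates the change of low genes. The fit had a mean per strain and time and a mixed-stage term, with 12 residual degrees of freedom. It was tried on simulated data whose noise was independent between libraries. The real libraries deviated together by replicate number, as given below, so that trial does not show how the fit performs on them. Groups came from the labels. Symbols, biotypes and structures were matched by sequence name to RefSeq (19880 genes) and Ensembl (19903 genes, WBcel235), without use of their coordinates against those of the files. Named were the 12 members with the lowest mean ratio, the 12 with the highest level, those in a gene list, called ones, and those nearest each threshold. Same-numbered libraries of a strain deviated together (correlations 0.38 to 0.90 over 15 pairs of times), so replicate numbers pair within strains. AM05 and CA1200 did not pair (-0.13 to 0.06). Alternatives were other scalings, pseudocounts, filters, blocks, subsets of libraries and leaving out each library. Promoter and protein sequences were not used here. The values of 2 members are not reported here, though they are included in all counts and medians.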

Additional observations from a re-analysis of the deposited data

Results flagged for a closer look

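Some members had a ratio of 120 to 0 min above 1 in both library pairs of another strain, while both AM05 ratios were below 1. The AM05 direction was fixed by the choice of the genes, and these differences between strains were not tested. The value given is the lower of both ratios. In SS01A it was 1.0402 for H35B03.1, 1.0551 for epic-2, 1.0688 for Y32H12A.6, 1.0169 for lin-22, 1.0706 for Y74C10AL.2 and 1.0578 for Y55B1BR.6, which was listed at 0 in SS01A replicate 1 at 0 min. In AM01, whose 2 pairs differ in stage, it was 1.0733 for otub-4, 1.0985 for Y18H1A.2, 1.0812 for sydn-1, 1.2375 for spgt-1, 1.1509 for lin-22 and 1.0143 for php-3. No group had 4 or more libraries, so none was examined for a single library far from the others.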

How the results depend on the processing

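The number of genes that the rule selects depended on its settings. With TPM as deposited it took 66 genes, among them 39 of the 40 members, without F01D5.6. With 1 replicate of AM05 or CA1200 left out it took 88 to 203, among them all 40, since fewer conditions apply. Upper-quartile scaling, a pseudocount of 0.25 and FPKM gave 38, 42 and 45 genes, of which 34, 38 and 40 were members. With a replicate block shared by AM05 and CA1200, whose numbers did not pair, limma called 2 members lower at 60 min (of 11 genes lower in all) and 1 at 30 min (of 6). With the numbers crossed, an alternative chosen after seeing the data, it called 1 at 30 min. The cause was not tested. The block within strains changed the call of no member. Over all genes it raised the calls of higher genes from 7 to 18 in AM01, from 0 to 3 in SS01A at 30 min and from 0 to 1 in SS01A at 60 min. The members' median against CA1200 kept its sign under every alternative run, from -0.86 to -0.45 at 60 min and from -0.49 to -0.35 at 30 min, as did that of AM05 at 60 against 30 min, from -0.40 to -0.27. TPM as deposited moved the median of all genes at 60 min by 0.18. The difference between the steps ranged from -0.32 to -0.02. The SS01A medians changed sign with the library left out, from -0.23 to 0.33 at 30 min, -0.35 to 0.26 at 60 min and -0.40 to 0.17 at 120 min. Leaving out the CA1200 library at 60 min gives no value, as it is the only 1. Members at low levels rest on few fragments, which limits what their ratios show.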
